A study of Mus musculus with 2 samples.

Results

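The genes described here are the 4 mouse Janus kinases (Jak1, Jak2, Jak3 and Tyk2), 4 of the signal transducers and activators of transcription (Stat3, Stat5a, Stat5b and Stat6) and the suppressor of cytokine signalling Socs3. They were taken by name, not by any measured value, though earlier results of these data were known. They make up 9 of the 55536 annotated genes in the deposited tables. All 9 were found. Janus kinases (JAKs) sit on the inner tails of cytokine receptors that have no kinase of their own. When the cytokine binds, they phosphorylate the receptor and then the STAT proteins that dock on it, and paired STATs move to the nucleus and switch on genes. SOCS3 is made in response and shuts the signal down by holding on to the receptor and to the kinase beside it. In neutrophils this route carries the signal of G-CSF, the cytokine that drives their production and release, through JAK1, JAK2 and mainly STAT3, with STAT5 also engaged.

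The libraries hold total RNA from neutrophils of peripheral blood, taken from adult C57BL/6J mice aged 5 to 6 weeks. No treatment, transgene or mutation is labelled. The 2 libraries form a single group and were made with the ScriptSeq v2 chemistry from 100 ng of RNA, with a labelled size range of 200 to 1000. They are numbered as biological replicates 1 and 2 but carry the same donor identifier, and sex was not collected, so the spread between them may be technical and the number of animals behind each is not labelled.

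The tables assigned 22647028 expected counts in total to replicate 1 and 21471719 to replicate 2, of which the 9 genes took 0.175% and 0.176%. Levels are given as TPM (a level per transcript length, scaled to a fixed total per library), from the authors' table on the GENCODE M21 gene models, and mean ± SD is over the 2 libraries (n = 2). Nuclear protein-coding genes together held 8.81% of TPM in replicate 1 and 8.35% in replicate 2, against 72.6% and 71.5% of the counts. With 1 group there was no condition to test, and 2 libraries allow no gene to be named for a pattern like that of a member.

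The labelled cell type was checked against marker genes. All 9 of 9 neutrophil markers were at 1 TPM or more in both libraries, with a summed level of 2494.94 TPM in replicate 1 and 2527.08 in replicate 2, from S100a9 (1123.48 and 1274.62 TPM) down to Ly6g (1.91 and 2.29). S100a9 held a large part of that sum, and the list median was 89.87 and 89.79 TPM. Markers of other blood cells were present too. All 9 of 9 B cell markers passed the same level, with sums of 662.89 and 604.41 TPM, from Ighm (290.08 and 261.34) down to Cr2 (16.35 and 13.47). Their list median, 47.93 and 44.94 TPM, was nearer to that of the neutrophil markers than the sums were. Erythroid markers passed in 5 of 7 cases, with sums of 4328.43 and 4263.41 TPM, led by the globin gene Hba-a2 (2896.87 and 2891.11), while the erythroid regulator Klf1 was at 0 and 0.01. T cell markers passed in 7 of 8 cases with sums of 29.96 and 30.05 TPM, from Cd3g (7.74 and 6.62) down to Cd4 (0.58 and 0.58). The remaining lists were lower. Monocyte markers passed in 4 of 6 cases (sums 26.47 and 24.09 TPM, Csf1r highest and Ace lowest), platelet markers in 4 of 7 (23.69 and 24.35, Ppbp highest and Gp6 lowest), natural killer cell markers in 2 of 6 (7.54 and 7.58, Gzma highest and Gzmb lowest) and eosinophil markers in 2 of 5 (5.47 and 6.00, Siglecf highest). The eosinophil peroxidase gene Epx was at 0 TPM in both. Every level below is that of the whole library, and the part other cells had in it was not tested. In such bulk RNA, fewer cells of a type and less RNA per cell cannot be told apart.

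All 9 genes were expressed in both libraries, and they fell into 3 steps. Stat3, Jak1, Stat6 and Socs3 stood between 21.66 and 36.10 TPM, Jak2 and Stat5b between 8.40 and 11.26, and Tyk2, Jak3 and Stat5a between 1.55 and 2.64. At 1 TPM or more in both libraries, all 9 of 9 counted as detected, against 34.9% of the 22028 annotated protein-coding genes. At 10 TPM or more in both, 4 of the 9 passed (Stat3, Jak1, Stat6 and Socs3), against 7.21% of protein-coding genes. The median of the 9 was 11.26 TPM in replicate 1 and 9.48 in replicate 2. For detected protein-coding genes it was 4.42 and 4.15, which 6 of the 9 exceeded.

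**Figure D1:**
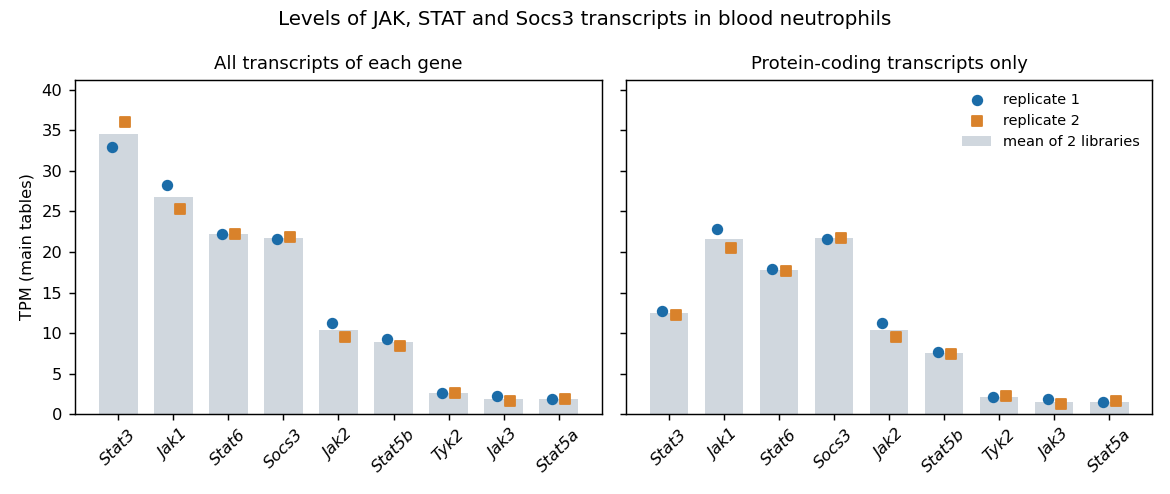
TPM of the 9 genes in replicate 1 (circles) and replicate 2 (squares), with bars for the mean of the 2 libraries, over all annotated transcripts of each gene (left) and over protein-coding transcripts alone (right). Stat3 leads on the left at 32.92 and 36.10 TPM and drops to 12.71 and 12.22 on the right, below Jak1, Stat6 and Socs3, while the 3 lowest genes are Tyk2, Jak3 and Stat5a on both sides.

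Jak1 was the highest of the kinases. JAK1 pairs with the receptors for interferons, for the interleukin-6 family and for the common gamma chain cytokines. Its gene (ENSMUSG00000028530.14, chr4:101152367-101265282, minus strand) stood at 28.21 TPM in replicate 1 and 25.26 in replicate 2 (26.7 ± 2.09), from 11235 and 10284 expected counts, the most of any of the 9. Jak2, the kinase of the G-CSF, GM-CSF, erythropoietin and thrombopoietin receptors (ENSMUSG00000024789.13, chr19:29251828-29313080, plus strand), stood at 11.26 and 9.48 TPM (10.4 ± 1.26). Jak1 was thus 2.58-fold above Jak2, a log2 difference of 1.37 ± 0.06 that was of one direction and close in size in both libraries.

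The other 2 kinases were several times lower. Tyk2, the partner of JAK1 at the type I interferon receptor and of JAK2 at the interleukin-12 and interleukin-23 receptors (ENSMUSG00000032175.11, chr9:21104068-21131243, minus strand), stood at 2.61 and 2.64 TPM. Jak3, which binds the common gamma chain (ENSMUSG00000031805.17, chr8:71676296-71690575, plus strand), stood at 2.21 and 1.55 TPM. Jak2 exceeded Tyk2 by 1.98 ± 0.19 on the log2 scale of TPM, and Tyk2 exceeded Jak3 by 0.50 ± 0.37, a gap little larger than its own spread. Tyk2 was the one gene whose counts shifted by more than 2% with the gene models. On the older GENCODE M4 models it received 679 and 813 expected counts in place of 866 and 964, and stood at 1.58 and 1.88 TPM, the lowest mean of the 9. Jak2 stood at 10.82 and 9.36 TPM on the M4 models with the same counts.

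The kinase genes share little sequence with one another. The coding sequences of their longest coding transcripts matched at 55.3% to 60.6% of aligned bases. Neighbours on the annotation bear more on where reads can be placed. The gene for the hormone insulin-like 3, Insl3, overlaps the end of Jak3 by 1362 nt on the same strand and holds 374 of the 31-base words of Jak3, most of the 8.29% of its words found in other genes. It received 38.27 and 17 expected counts, against 772.73 and 561 for Jak3. Jak1 overlaps the end of Raver2 by 4 nt (62 and 45 counts) and holds the small genes Gm24468 (0 counts in both) and Gm12785 (3 counts in each). The antisense gene 1700084C06Rik overlaps 24326 nt of Tyk2 and received 1 and 0 counts. Whether the tables used the strand of the reads is not given in the sources used here, so reads of Tyk2 and its antisense partner may not be told apart. Insl3 and Jak3 lie on the same strand, which strand could not separate.

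The kinases differed in how many transcript forms carried their level. Shares below are the percent of the gene's TPM in the M21 transcript table, followed where given by the share in a further deposited table whose listed sources hold reads but no alignment (the alignment-free table). Jak1-201, the full coding form, held 80.61% and 81.05% of Jak1, and the non-coding Jak1-205 held 12.07% and 14.61%. Jak2 has only coding transcripts in the annotation. Jak2-202 held 76.16% of it in replicate 1 and 88.32% in replicate 2, and Jak2-204 held 23.84% and 11.68%. Both code for the same 3396 nt and differ in their untranslated ends. The authors' intervals of the Jak2-204 TPM did not overlap between the libraries, but the alignment-free table gave it 45.1% and 40.0%, so its share differed more between the tables than between the libraries.

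In Jak3, the coding form Jak3-202 held 72.70% and 75.48%, and the retained-intron form Jak3-204 held 13.96% and 21.57%. A second coding form, Jak3-201, held 9.17% in replicate 1 and was listed at 0 in replicate 2. The authors' intervals of its TPM overlapped between the libraries, and the alignment-free table gave it 10.3% and 2.39%. The leading form of Tyk2 was Tyk2-203, at 52.93% and 64.13% of TPM. It is not the longest annotated coding form. Tyk2-206 and Tyk2-201 code for 3621 nt and Tyk2-203 for 3552 nt, since Tyk2-203 starts 1 exon 69 nt later, which keeps the reading frame. The stretch at this splice acceptor (chr9:21124121-21124430, minus strand, GRCm38, GENCODE M21 transcript) is shown because the form without the capital letters carried most of the Tyk2 level.
Tyk2-206: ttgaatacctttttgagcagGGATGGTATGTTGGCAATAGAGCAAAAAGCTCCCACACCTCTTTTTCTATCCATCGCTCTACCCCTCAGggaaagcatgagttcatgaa

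The capitals mark the 69 bases absent from Tyk2-203. Tyk2-206, which holds them, was listed at 0 in both libraries in both transcript tables. Tyk2-201, the other form of 3621 coding nt, held 8.97% and 4.84% in the M21 table and was listed at 0 in the alignment-free table. The rest of Tyk2 lay in the short coding form Tyk2-205 (16.90% and 15.32%) and the retained-intron form Tyk2-204 (19.15% and 11.43%).

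Stat3 had the highest level of the 4 STAT genes on the whole-gene scale. STAT3 is the main STAT of the interleukin-6 family, interleukin-10 and G-CSF. Its gene (ENSMUSG00000004040.16, chr11:100885098-100939540, minus strand) stood at 32.92 TPM in replicate 1 and 36.10 in replicate 2 (34.5 ± 2.25), from 5588 and 5654 expected counts. It exceeded Jak1 in both libraries, by 0.37 ± 0.21 on the log2 scale of TPM, although Jak1 had more counts. Stat6, the STAT of interleukin-4 and interleukin-13 (ENSMUSG00000002147.18, chr10:127642986-127660957, plus strand), stood at 22.18 and 22.26 TPM (22.2 ± 0.0566), the smallest relative spread among the 9 genes.

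The first place of Stat3 rested on a short transcript. Stat3-213, a retained-intron form of 396 nt, held 34.74% of the gene's TPM in replicate 1 and 40.74% in replicate 2. Its own level was 11.44 and 14.71 TPM. It received 258.28 and 343.28 expected counts, or 4.62% and 6.07% of those of the gene. The alignment-free table also ranked it first in Stat3, with 26.1% and 27.2%. Because so much of the TPM came from short forms, the effective length of the gene in the table was 1737 nt in replicate 1 and 1593 nt in replicate 2, shorter than each of the 3 main coding transcripts, which run from 2927 to 6042 nt.

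Of the 396 nt of Stat3-213, 351 lie in exons of the coding form Stat3-203, and 45 lie past a splice donor, in the intron. These 45 bases are what sets Stat3-213 apart from the messenger RNA in the region it covers. At the same donor the 2 main coding forms differ by 3 bases. The 3 transcripts are shown from the same exon base on (minus strand of chromosome 11, GRCm38, GENCODE M21 transcripts). Stat3-213 spans chr11:100893029-100893113, and the spliced forms run on into the next exon, down to base 100889899.
Stat3-203: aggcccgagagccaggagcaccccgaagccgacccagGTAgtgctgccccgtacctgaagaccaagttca
Stat3-201: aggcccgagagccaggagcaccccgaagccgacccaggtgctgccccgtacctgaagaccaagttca
Stat3-213: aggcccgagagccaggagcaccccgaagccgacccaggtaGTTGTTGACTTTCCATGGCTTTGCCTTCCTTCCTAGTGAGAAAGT

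In Stat3-203 the capitals mark the 3 bases that Stat3-201 lacks (100893074 to 100893076), and in Stat3-213 they mark the 45 intronic bases (100893029 to 100893073). Stat3-201, the form with 3 bases fewer, held 20.44% of Stat3 TPM in replicate 1 and 15.08% in replicate 2. Stat3-203, the form with the 3 bases, held 11.33% and 13.94%. In the alignment-free table Stat3-201 held 21.4% and 21.1% and Stat3-203 held 11.8% and 14.9%. By TPM, Stat3-201 was above Stat3-203 in both libraries and both tables. In replicate 2, however, the authors' TPM intervals of the 2 forms overlapped (4.597 to 5.942 and 4.449 to 5.459), and by expected counts the longer Stat3-203 was higher there (2156.12 against 1481.28), so their order was not resolved.

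STAT3 has a known shorter protein, STAT3 beta, whose tail is replaced and which lacks the main activating region. In the annotation, Stat3-202 joins a later acceptor and has a coding sequence of 2166 nt, against 2310 nt in Stat3-203. The junction (chr11:100889521-100889905, minus strand, GRCm38, GENCODE M21 transcripts) is shown because these 50 bases decide which tail is encoded.
Stat3-203: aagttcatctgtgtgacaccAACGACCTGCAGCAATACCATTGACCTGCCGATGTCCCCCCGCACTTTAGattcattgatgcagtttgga
Stat3-202: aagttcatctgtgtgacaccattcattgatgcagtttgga

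The capitals mark the 50 bases that Stat3-202 skips (100889541 to 100889590). Stat3-202 stood at 2.25 TPM in replicate 1 and 1.71 in replicate 2, or 6.84% and 4.74% of the gene's TPM, much of which lay in short retained-intron forms. By expected counts it took 23.1% and 17.5% of the gene (1293.38 and 988.68). In the alignment-free table it stood at 1.58 and 1.16 TPM. It was the lowest of the 3 main coding forms in both tables. A further coding form, Stat3-207, was at 0 and 0.04 TPM.

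**Figure D2:**
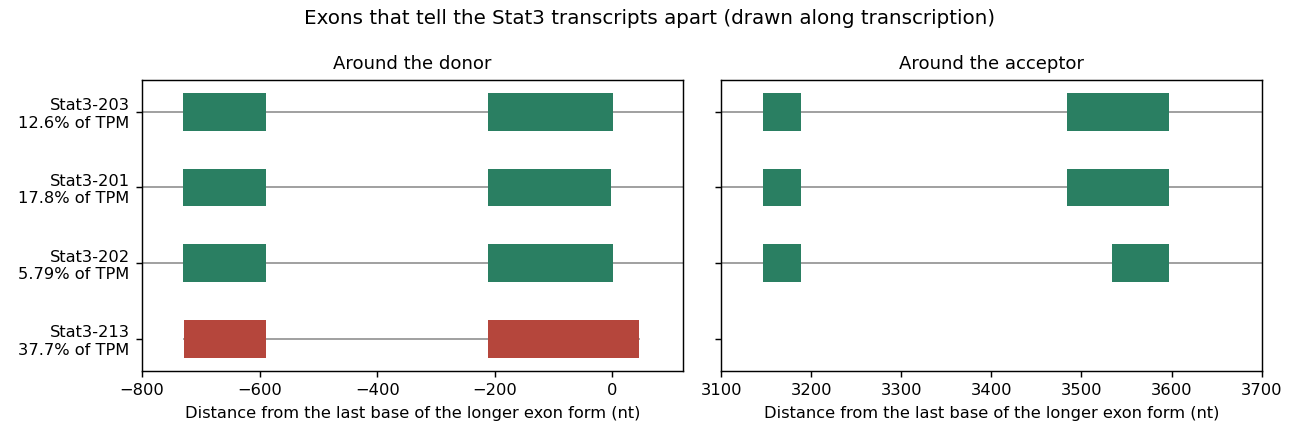
Exons of 4 Stat3 transcripts along the direction of transcription, as distance in nt from the last base of the exon in Stat3-203, around the donor that Stat3-213 reads past (left) and the acceptor that Stat3-202 moves (right). Coding forms are green, the retained-intron form is red, and each label gives the mean share of Stat3 TPM, from 5.79% for Stat3-202 to 37.7% for Stat3-213, whose last exon runs 45 nt beyond the donor.

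Over all 14 Stat3 transcripts, the 9 retained-intron forms held 61.38% of TPM in replicate 1 and 66.12% in replicate 2. The coding forms held 38.61% and 33.86% of TPM but, as a mean, 83.0 ± 1.47% of the expected counts. In the alignment-free table the coding forms held 38.0 ± 0.273% of TPM. Stat3 stood apart in this from the other members. Its non-coding share of TPM, 63.8% as a mean of the libraries, lay at percentile 85.7 of the 6503 detected protein-coding genes with a non-coding transcript, whose median was 31.5% and whose quartiles were 14.7% and 52.3%. The other 7 members with such a transcript lay below that median, from Socs3 at 0.206% to Stat6 at 20.2%. Counted by reads, the non-coding share of Stat3 was 17.0%, close to the median of 16.8% for those genes.

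**Figure D3:**
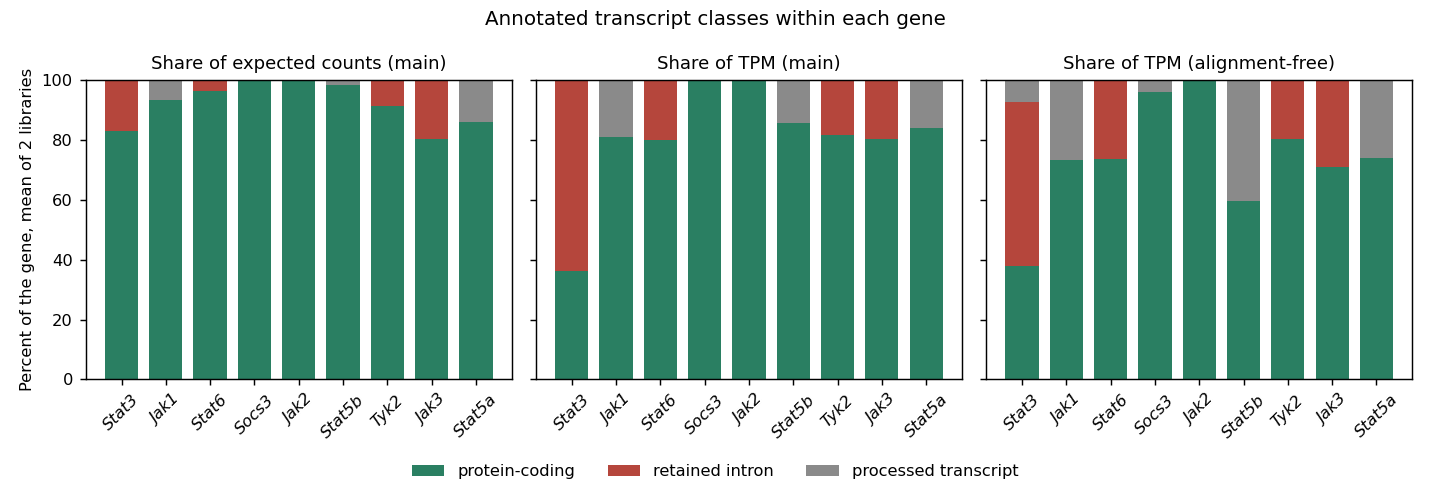
Share of each gene held by transcripts annotated as protein-coding, retained intron or processed transcript, in percent as the mean of the 2 libraries, by expected counts (left), by TPM (middle) and by TPM of the alignment-free table (right). Coding transcripts of Stat3 hold 83.0% of counts but 36.2% of TPM and 38.0% of alignment-free TPM, and those of Stat5b hold 85.5% of TPM but 59.4% of alignment-free TPM.

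Levels over protein-coding transcripts alone, a scale chosen after these values were seen, gave another order. Stat3 stood at 12.71 TPM in replicate 1 and 12.22 in replicate 2 (12.5 ± 0.346), 0.79 ± 0.07 below Jak1 on the log2 scale, where the whole gene had been above it. Jak1 stood at 22.83 and 20.48 TPM, Socs3 at 21.66 and 21.73, and Stat6 at 17.86 and 17.60. Socs3 and Jak1 overlapped on this scale, as did Stat5a (1.49 and 1.56) and Jak3 (1.81 and 1.22). All other neighbours in the coding order were separate. Leaving out Stat3-213 alone, also chosen after the values were seen, placed Stat3 at 21.4 TPM as a mean, 0.32 ± 0.11 below Jak1 on the log2 scale and just under Stat6 and Socs3.

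The 2 STAT5 genes stood well apart in level. STAT5A and STAT5B are close relatives that answer to GM-CSF, interleukin-3, interleukin-5 and growth hormone, among others. Stat5b (ENSMUSG00000020919.11, chr11:100780731-100850724, minus strand) stood at 9.28 TPM in replicate 1 and 8.40 in replicate 2 (8.84 ± 0.622). Stat5a (ENSMUSG00000004043.14, chr11:100859351-100885169, plus strand) stood at 1.80 and 1.83 TPM, the lowest mean of the 9. Stat5b was 4.86-fold above Stat5a, a log2 difference of 2.28 ± 0.12. The libraries of the 2 genes did not overlap.

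These 2 genes are also the pair most open to misplaced reads. Their coding sequences matched at 90.7% of 2343 aligned nt. Of the 31-base words of Stat5a, 12.3% were found in other genes, and 836 were shared with Stat5b, so part of their reads could have gone to either gene. They lie head to head, 8626 nt apart, and the end of Stat5a overlaps the end of Stat3 by 72 nt on the opposite strand. The 3 genes together span 159 kb of chromosome 11. Neighbours in position were not neighbours in level, since Stat5a had the lowest mean, though it overlapped Jak3, and Stat3 the highest on the whole-gene scale.

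Within Stat5b, the coding forms Stat5b-202 and Stat5b-201, which encode the same 2358 nt from different first exons, held 57.64% and 24.74% of TPM in replicate 1 and 55.94% and 32.67% in replicate 2. The tables disagreed about the short non-coding Stat5b-203, which took 17.62% and 11.39% in the M21 table but 44.1% and 37.1% in the alignment-free table. Stat5a was led by its coding form Stat5a-202, at 81.11% and 79.52%. Its non-coding Stat5a-207 took 10.29% and 13.19%, and the non-coding Stat5a-205 took 7.20% and 1.75%. In Stat6, the coding form Stat6-201 held 80.54% and 79.08%, and the retained-intron form Stat6-205 held 15.19% and 14.48%. The gene Nab2 overlaps the end of Stat6 by 40 nt on the opposite strand and received 363 and 342 counts, against 6533 and 6504 for Stat6. As a group, the median of the 4 STATs exceeded the median of the 4 JAKs by 1.26 ± 0.11 on the log2 scale of TPM, and by 0.68 ± 0.09 over coding transcripts alone. These 4 STATs are a chosen part of their family, while the 4 JAKs are all of theirs. The SD is over libraries and not over genes. Single genes ran from 1.80 to 36.10 TPM among these STATs and from 1.55 to 28.21 among the JAKs, so the groups overlapped widely.

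Socs3 was level with Stat6 over all transcripts of the M21 models. The gene (ENSMUSG00000053113.3, chr11:117966079-117970047, minus strand) stood at 21.66 TPM in replicate 1 and 21.82 in replicate 2 (21.7 ± 0.113), from 5054 and 5114 expected counts. Nearly all of it was 1 transcript. The coding Socs3-201 held 100% in replicate 1 and 99.56% in replicate 2, and 94.8% and 97.1% in the alignment-free table. None of its 31-base words was found in another gene, so its reads are the least open to misplacement, together with those of Jak2. Against Stat3, Socs3 was lower by 0.67 ± 0.09 on the log2 scale over all transcripts and higher by 0.80 ± 0.04 over coding transcripts alone. Against Stat6, Socs3 was higher by 0.29 ± 0.02 over coding transcripts. In the alignment-free table it was lower than Stat6 by 0.38 ± 0.03 over all transcripts, and level with it over coding transcripts (0.01 ± 0.04).

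STAT dimers are known to bind the palindrome TTCNNNGAA, and Socs3 is a textbook STAT3 target. This motif was searched in the RefSeq promoter windows (GRCm38.p6, 250 bases before to 50 after each gene start), where it reads the same on both strands. Of the 9 genes, only Socs3 held it, against 8.30% of 32851 promoter windows, so 1 in 9 is near the background. Stat5a and Stat5b had more than 1 window each, so a share of genes and a share of windows are not quite like for like. The match starts 154 bases before the RefSeq gene start but inside the M21 gene span given above, which begins further upstream. The stretch around it (chr11:117969487-117969545, minus strand) is shown with the motif in capitals. It is a match of letters and no measure of binding.
Socs3 promoter: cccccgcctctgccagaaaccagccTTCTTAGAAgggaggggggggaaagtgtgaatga

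Set in order of mean TPM, the genes ran Stat3, Jak1, Stat6, Socs3, Jak2, Stat5b, Tyk2, Jak3 and Stat5a. Of the 8 neighbouring pairs, 7 did not overlap between genes over the 2 libraries. Jak3 and Stat5a did, with Jak3 higher by 0.30 on the log2 scale in replicate 1 and lower by 0.24 in replicate 2. Stat6 and Socs3 were separate by only 0.03 on the log2 scale, and in each library the authors' intervals of their TPM overlapped, so their order was not resolved. The widest steps were from Stat5b to Tyk2 (1.75 ± 0.11) and from Socs3 to Jak2 (1.07 ± 0.18). The smaller steps were Stat3 to Jak1 (0.37 ± 0.21), Jak1 to Stat6 (0.26 ± 0.12) and Jak2 to Stat5b (0.23 ± 0.07). In the alignment-free table Stat5b lay above Jak2 in both libraries, by 0.08 ± 0.01, and Stat3 and Jak1 overlapped. The neighbours that did not overlap numbered 5 of 8 there and 6 of 8 on M4 models, each in its own order.

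The 2 libraries gave near-equal levels for most of the 9 genes. The comparison used CPM (expected counts scaled to the library total), replicate 2 over replicate 1, with exact conditional binomial 95% intervals, which cover counting error only and compare these 2 libraries, not conditions. None of the 9 differed by 2-fold, against 2.68% of the 11981 genes with enough counts. At 1.2-fold, 1 differed, Jak3, against 26.8% of those genes in either direction and 13.7% lower in replicate 2. The ratio of Jak3 was 0.765 (0.685 to 0.854), which is 1.31-fold lower in replicate 2, from 34.1 and 26.1 CPM. Its authors' TPM intervals, 2.04 to 2.36 and 1.42 to 1.68, did not overlap either. Tyk2 went the other way with a ratio of 1.17 (1.07 to 1.29).

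The remaining ratios ran from 0.919 for Jak2 (0.882 to 0.957) to 1.09 for Stat5a (0.972 to 1.22). Stat3 and Socs3 each had a ratio of 1.07, Stat6 of 1.05, Stat5b of 1.02 and Jak1 of 0.965. By CPM, Jak1, Jak2 and Jak3 were lower in replicate 2 and the other 6 genes higher. For Stat5b the TPM went the other way, with a ratio of 0.905, and for Stat5a the CPM ratio of the alignment-free table was 0.995, so neither has a firm direction. By TPM, the genes higher by CPM other than Stat5b had ratios of 1.10 (Stat3), 1.02 (Stat5a), 1.01 (Tyk2 and Socs3) and 1.00 (Stat6). Intervals of 7 genes excluded 1, against 41.0% of all genes tested. With TMM factors, DESeq2 size factors or the total over nuclear protein-coding genes, 6 did. Among the 7, Jak1 lay nearest 1, with an upper bound of 0.992. Such intervals narrow with counts. The 9 genes had 561 to 11235 and the genes tested reach down to 50, so the shares are not like for like. The median ratio of all genes tested was 0.987, with quartiles of 0.902 and 1.09. Thus 6 of the 9 ratios lay between the quartiles, Stat5a at the upper one, Jak3 below and Tyk2 above. On the TPM scale, nuclear protein-coding genes as a whole summed to less in replicate 2 (88118 and 83488 TPM), as did the B cell markers (662.89 and 604.41), the monocyte markers (26.47 and 24.09) and the erythroid markers (4328.43 and 4263.41). The other marker lists, with the neutrophil list among them (2494.94 and 2527.08), summed to more. These sums are in TPM and the ratios in CPM, so they are not like for like. The part of any of these in the ratios was not tested.

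**Figure D4:**
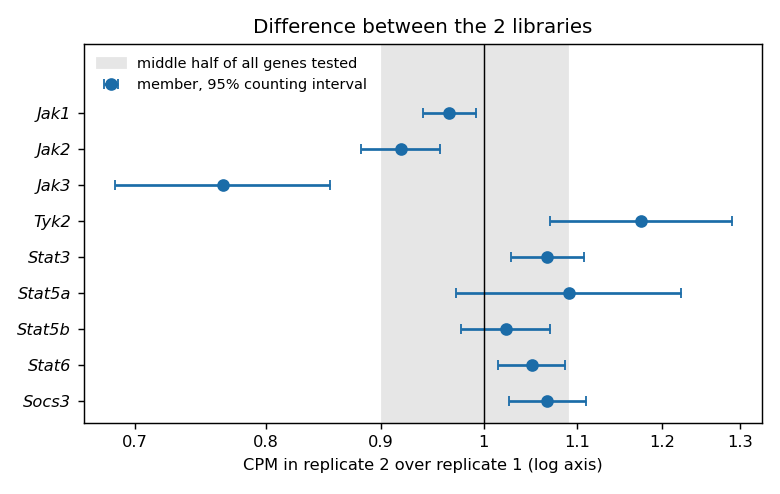
CPM in replicate 2 over replicate 1 for each gene on a log axis, with points for the ratio, bars for its 95% exact conditional binomial interval (counting error only) and a grey band for the quartiles of all 11981 genes tested (0.902 to 1.09). Jak3 at 0.765 lies left of the band and Tyk2 at 1.17 lies right of it.

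The rest of the pathway was read from lists of genes by role, 8 lists with 109 genes beside the members. Of these, 59 were at 1 TPM or more in both libraries, with a median of 1.5 TPM. Among all annotated protein-coding genes, 34.9% reached 1 TPM and 7.21% reached 10 TPM in both libraries, the background for the list counts below. No background was formed for genes without reads. Of the other STATs and their partners, Irf9, a subunit of the interferon-activated STAT complex, stood at 13.7 ± 0.431 TPM. Stat4, the STAT of interleukin-12, stood at 10.01 and 7.59 TPM (8.80 ± 1.71), and Stat2, a STAT of the type I interferons, at 6.37 and 5.35 (5.86 ± 0.721). Stat4 was the one of these 3 that differed most between the libraries.

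Of the 36 receptor chains that signal through JAKs, 22 were detected and 9 stood at 10 TPM or more in both libraries, with a list median of 2.44 ± 0.138 TPM. The G-CSF receptor gene Csf3r was far above the rest at 272.78 TPM in replicate 1 and 234.53 in replicate 2 (254 ± 27.0). It is also 1 of the neutrophil markers used above. Next came Il4ra (21.6 ± 0.834), a receptor chain of interleukin-4 and interleukin-13, then Il2rg, the common gamma chain bound by JAK3 (20.5 ± 2.52), and Ifngr1, of the interferon gamma receptor (20.1 ± 2.41). The gene for the common beta chain of the GM-CSF receptor, Csf2rb, stood at 18.0 ± 0.495 and its partner Csf2ra at 14.2 ± 0.297. The interferon receptor chain Ifnar1 (13.7 ± 1.03) and the interleukin-10 receptor chains Il10rb (12.5 ± 0.184) and Il10ra (10.7 ± 0.488) completed those above 10.

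At the low end, 13 receptor chains were under 1 TPM in both libraries. The leptin receptor gene Lepr and Il22ra1 had no count in either, which allows up to 0.132 CPM in replicate 1 and 0.140 in replicate 2. The interleukin-6 receptor genes, singled out after their values were seen because SOCS3 acts on this receptor, stood on either side of the list median, with Il6ra at 4.30 and 3.78 TPM and its signalling chain Il6st at 1.80 and 1.65. Of 27 ligand genes, 4 were detected and 15 received no reads in either. The 4 were Osm (8.08 ± 0.141), of the interleukin-6 family, Il15 (7.17 ± 0.219), Il12a (2.54 ± 0.332) and Ebi3 (2.05 ± 0.594). The gene for G-CSF itself, Csf3, also singled out after its values were seen, was among the 15.

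Socs3 was the highest of its family. Of the 7 other CIS and SOCS genes, 3 were detected, all below 3 TPM, with a list median of 0.925 ± 0.0495. Socs4 stood at 1.89 ± 0.304, Socs6 at 1.45 ± 0.0495, Socs7 at 1.10 ± 0.0919 and Socs5 at 0.925 ± 0.0495. Cish, a textbook STAT5 target and the lowest of them, was at 0.05 TPM in both libraries, from 17 and 20 expected counts. Other inhibitors of the pathway were all detected, 12 of 12, with a median of 6.44 ± 0.325 TPM. The phosphatase genes Ptprc (CD45, 222 ± 17.9) and Ptpn6 (SHP-1, 174 ± 21.9) were above every JAK and STAT, Ptpn1 stood at 18.73 and 12.92, the ubiquitin ligase gene Cbl at 7.58 ± 0.120, and Usp18, which restrains the interferon receptor, was lowest at 1.92 ± 0.0636.

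Textbook targets of the STATs differed by list. Among 10 STAT3 targets beside Socs3, 9 were detected and 6 stood at 10 TPM or more in both libraries, with a median of 18.0 TPM. The survival gene Mcl1 (127 ± 10.5), the early-response genes Fos (106 ± 2.60) and Junb (78.5 ± 5.66), the kinase gene Pim1 (53.2 ± 1.53), Il4ra and Cebpb (14.4 ± 0.799) made up the 6, and Myc was lowest at 0.925 ± 0.219. Among 10 STAT5 targets 7 were detected, with a median of 1.92 ± 0.209, from Pim1 again, Ccnd3 (18.7 ± 1.69), Bcl6 (8.90 ± 1.03) and Osm down to Cish. Among 10 STAT6 targets 3 were detected and 3 received no reads at all, with a median of 0.10 ± 0.042. The 3 were Fcer2a (32.7 ± 1.23), which is also a B cell marker, Il4ra and Chil3 (2.56 ± 0.283), with Alox15 (0.485 ± 0.134) next and Retnla, Ccl17 and Ccl22 the 3 without reads. These lists share genes and most targets have other regulators, so their levels are a description and no measure of STAT activity. Protein and phosphorylation were not measured.

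**Figure D5:**
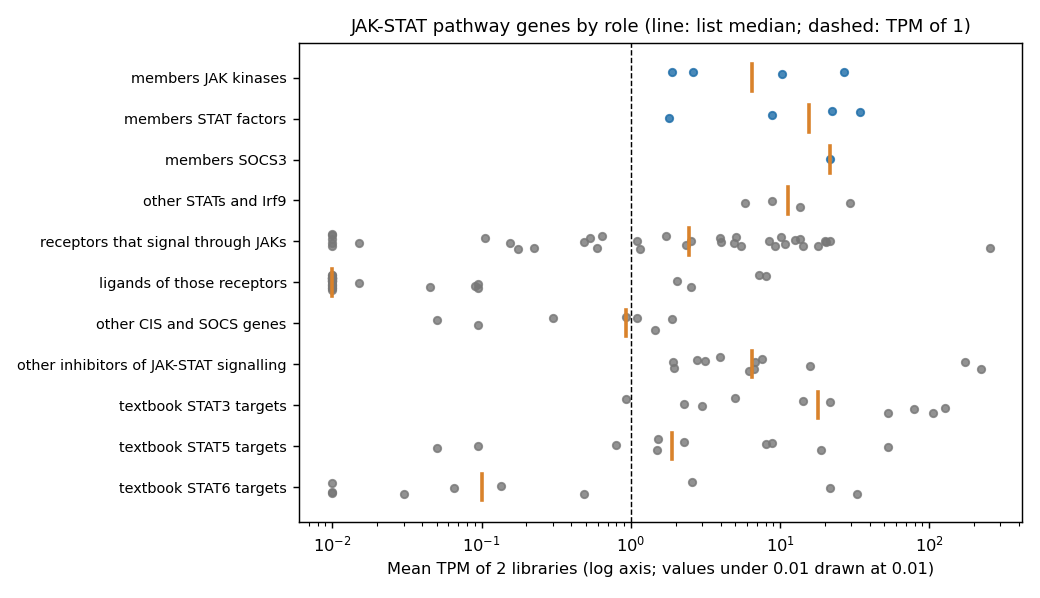
Mean TPM of the 2 libraries for each gene of the pathway, by role, on a log axis with values under 0.01 drawn at 0.01, an orange line at each list median and a dashed line at 1 TPM. The JAKs, STATs, inhibitors and STAT3 targets lie to the right of the dashed line except Myc at 0.925, while most ligands and STAT6 targets lie left of it.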

How the data were processed

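For each of the 2 libraries the authors deposited a gene table and a transcript table on GENCODE M21 models, with an expected count, a TPM and, per transcript, the percent of the gene's TPM, per the file headers. Both come from reads aligned to the transcriptome on mm10 (GRCm38), per the deposited file lists, which also name a gene table on GENCODE M4 and an M21 transcript table with estimated counts and TPM whose listed parents hold no alignment. The authors' interval bounds of TPM have no stated level. The programs, their versions and the strand setting are not stated in any source used here. Entries without a gene (26345) held almost no counts and stayed out.

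From these, TPM and shares were averaged over libraries, ratios of TPM were formed within each library, and expected counts, rounded to whole numbers for intervals, were scaled to the library total (CPM). Library ratios cover genes with at least 50 expected counts in the higher library. A count of 0 allows 3 counts. Intervals and this limit cover counting error only, since reads are not independent molecules. The ratio step was tested on simulated data. Python 3.11.15 (numpy 2.4.6, pandas 2.3.3, scipy 1.17.1, matplotlib 3.10.9) was used, with TMM factors from edgeR 4.0.16 and size factors from DESeq2 1.42.0 under R 4.3.3 as alternatives.

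The members and the 8 pathway and 8 marker lists were chosen with earlier results of these data known. Named are all members, the 4 highest, the lowest and every gene at 10 TPM or more in both libraries of each pathway list, the highest and lowest marker of each list, transcripts with at least 10% of a member in either table, coding forms of Stat3 with another end, and genes that overlap a member. Others are marked as singled out afterwards. Of the ligands tied at 0, Csf3 alone is named. A gene that meets this rule is not reported here.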

Additional observations from a re-analysis of the deposited data

How the results depend on the processing

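The reported order rests on which transcripts are counted and, for some close pairs, on the table used. Stat3 over Jak1 on the log2 scale of TPM was 0.37 and became -0.79 over coding transcripts, -0.78 over coding transcripts of the alignment-free table and -0.32 without Stat3-213, all settings chosen after seeing the data. Socs3 over Stat3 was -0.67 and became 0.80, 0.58 and 0.020 in the same settings, and -0.76 in the whole alignment-free table. The median STAT over the median JAK was 1.26 and became 0.68 over coding transcripts, 0.60 over alignment-free coding transcripts, 1.47 in the alignment-free table, 1.37 on M4 models and 1.14 with a pseudocount of 1. In 4 of these settings Jak1 over Jak2, 1.37 as reported, was 1.06, 1.06, 1.52 (alignment-free) and 1.29 (pseudocount). Stat5b over Stat5a, 2.28, was 2.04 over alignment-free coding transcripts and 1.80 with the pseudocount. The median of the 9 genes, 10.4 TPM, was 18.4 in the alignment-free table, 17.4 over its coding transcripts and 121 with TPM rescaled to nuclear protein-coding genes. Stat3-213 took 26.6% of Stat3 in the alignment-free table. On M4 models 2 genes passed 1.2-fold between the libraries, since Tyk2 joined Jak3. At 5 TPM, 33 of the pathway genes and 6 of the 9 genes were detected. Beyond what the construction of a setting shows, the cause was not tested.

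With 1 library left out, Stat3 over Jak1 ran from 0.22 to 0.52, Socs3 over Stat3 from -0.73 to -0.60, STAT over JAK from 1.18 to 1.34, Jak1 over Jak2 from 1.32 to 1.41, Stat5b over Stat5a from 2.20 to 2.37, the median from 9.48 to 11.26 TPM, the Stat3-213 share from 34.74% to 40.74% and the pairs in the reported order from 35 to 36 of 36. With 2 libraries these are the values of the library kept, so they are no test of stability. In the other settings, levels of single genes stayed within 1 SD of the reported mean in 17 cases and moved beyond it in 37, and transcript shares stayed in 9 and moved in 20. Leaving out Stat3-213 cannot move any gene but Stat3, so those cases among the 17 were fixed by construction. Library ratios stayed inside their reported counting interval in all 54 cases, with the ratio of Stat5a turning from 1.09 to 0.995 in the alignment-free table. Dropping the filter on low counts left each ratio as reported, so those cases could not move. On M4 models 8 genes kept at least 98% of their counts, which left their ratios little room to move. Counts of detected genes per pathway list stayed within 1.5 times the reported count in 26 cases and not in 6. No paired analysis was possible because the libraries form a single group. Depth limits the low genes most, and Jak3 and Stat5a rest on 561 to 772.73 expected counts per library.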
